A study of Arabidopsis thaliana with 6 samples.

Results

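The plasma membrane intrinsic proteins (PIPs) are the aquaporins that carry water across the plasma membrane of plant cells. The genes described here are 10 PIP loci of Arabidopsis thaliana, chosen by their locus identifiers, out of 21975 loci that a tested probe set names. They are given by the symbols of the RefSeq gene table, with the systematic name where it differs. The PIP1 genes are PIP1A (AT3G61430, PIP1;1), PIP1B (AT2G45960, PIP1;2), PIP1C (AT1G01620, PIP1;3), PIP1;4 (AT4G00430) and PIP1;5 (AT4G23400). The PIP2 genes are PIP2A (AT3G53420, PIP2;1), PIP2B (AT2G37170, PIP2;2), RD28 (AT2G37180, PIP2;3), PIP3 (AT4G35100, PIP2;7) and PIP2;8 (AT2G16850). On the Affymetrix arrays used, a transcript is measured by a probe set, several short oligonucleotides that match it, and near-identical transcripts can share one. The 10 loci were read by 9 probe sets. The PIP1 genes, PIP2A and PIP2;8 each had one of their own. PIP2B and RD28, which lie next to each other on chromosome 2 with 0 annotated genes between them, shared one and cannot be told apart. PIP3 was read only by a probe set that also names PIP2;8, so its values may hold signal of both.

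The arrays came from whole seedlings of the Col-0 accession, a common laboratory strain, with no transgene or mutation named in the labels. The control group was 3 arrays of seedlings held in darkness without heat, and the heat group was 3 arrays of seedlings held in darkness at 37 °C for 30 min. Seeds of both groups had been chilled at 4 °C for 72 h, and the plants grew at 23 °C in days of 16 h light and 8 h dark. The series' design gives an age of 10 days, whereas the sample labels give 16, 17 and 18 days to control replicates 1 to 3 and 19, 20 and 21 days to heat replicates 1 to 3, so that labelled age and heat cannot be told apart by group.

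PIPs form tetramers in which each subunit is a water pore. PIP1 and PIP2 proteins form 2 sequence groups: PIP2 proteins are strong water channels when made alone in frog oocytes, while most PIP1 proteins reach the plasma membrane efficiently only in tetramers with a PIP2. Their pores are gated by phosphorylation, protons and calcium, and in Arabidopsis they set much of the water conductance of roots and leaves. Water stress is known to change the transcript levels of many PIP genes, and the series asked how the transcriptome responds to heat and how that response meets light signalling. The comparison below covers the dark groups.

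The values are log2 expression values as the authors deposited them, without detection calls. The array medians were 2.92, 2.84 and 2.95 in controls and lower, at 2.79, 2.78 and 2.81, after heat. Heat arrays correlated with each other at Pearson r of 0.989 to 0.991, controls at 0.976 to 0.988 and arrays of different groups at 0.941 to 0.954, and control replicate 2 had the lowest correlations among the controls. The heat label was borne out by HSP101, a heat-induced disaggregase, which read 2.96, 2.30 and 3.24 in controls and 11.03, 11.13 and 10.90 after heat. Of 22746 probe sets, limma called 533 higher and 909 lower at an adjusted p under 0.05. Among 3 reference genes 0 passed, and ACT2 differed by -0.25, UBQ10, on a shared probe set, by 0.29 and PP2AA3 by 0.08. Of the 6 shoot markers, all read above the 99th percentile of all probe sets and 0 passed the test, with differences of -0.17 to 0.07, while 5 of 9 root markers lay below the median level of all probe sets.

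None of the PIP probe sets passed the test after heat. The count was 0 higher and 0 lower among 9 in limma's fit, against 6.34% of all probe sets called in either direction (2.34% higher and 4.00% lower), and 0 of 9 reached an unadjusted p under 0.05, against 21.4% of all. The PIP differences, heat minus control on the log2 scale, ran from -0.30 to 0.75 with a median of 0.02, beside a median of -0.01 over all probe sets. Of the 9, 6 were above 0 and 3 below, and adjusted p-values ran from 0.25 to 0.968. Heat and control arrays overlapped for 8 of 9, and 1 lay wholly above the controls after heat. Over all probe sets, the groups did not overlap for 26.3%, with 10.4% above after heat and 15.8% below. In RNA of whole seedlings, fewer cells of a type and less RNA per cell cannot be told apart.

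**Figure D1:**
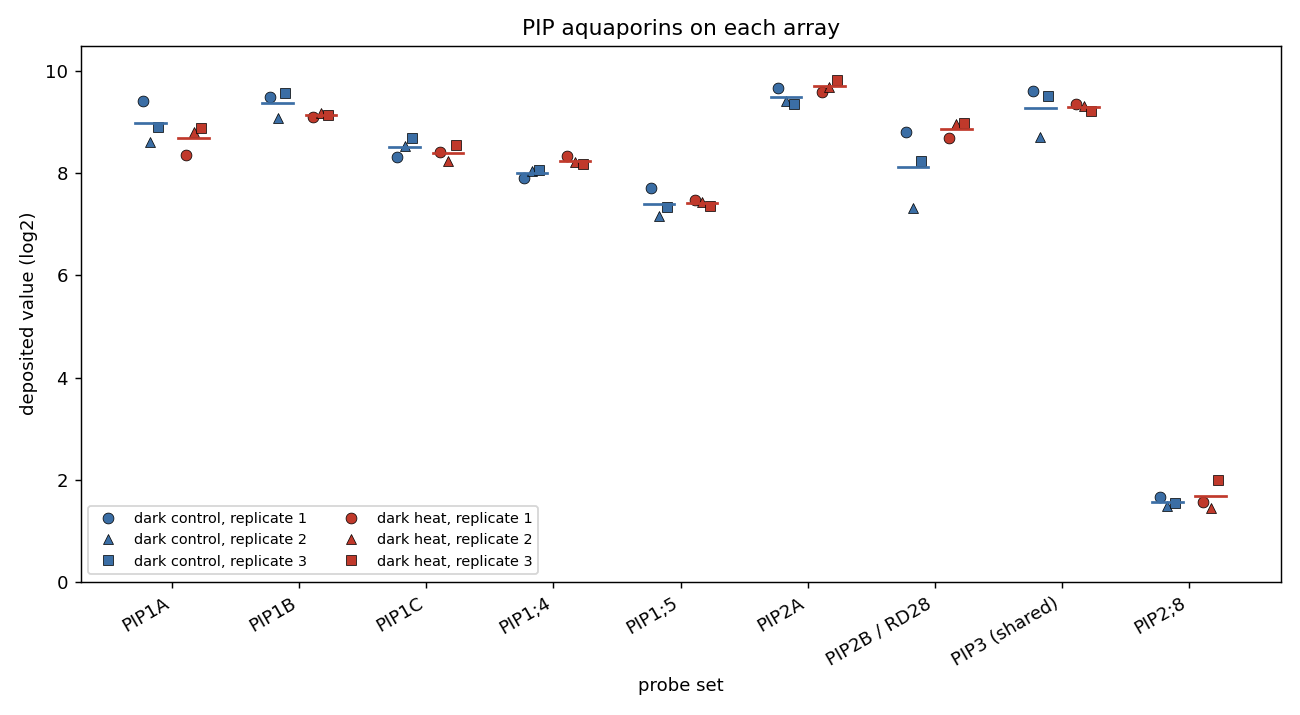
Deposited log2 value (y axis) of each PIP probe set (x axis) on each of the 6 arrays. Blue symbols are dark control arrays and red symbols dark heat arrays, circles, triangles and squares are replicates 1, 2 and 3, and short lines are group means. The 2 groups overlap for 8 of 9 probe sets, and the lowest blue triangle of the PIP2B and RD28 probe set is at 7.32.

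The intervals of these differences show how precisely limma's fit placed each of them. For 8 of 9 probe sets the 95% interval lay within 1 log2 unit of 0, which is within a doubling or a halving. Of all probe sets, 86.4% met the same bound, so it was not particular to the PIPs. The exception among the 9 was the probe set of PIP2B and RD28. The 8 include the probe set of PIP2;8, whose level, at the 12.4th percentile, cannot be told from background. Every one of the 9 intervals included 0. The intervals rest on a spread between arrays that may be only technical. They concern transcript level after the single heat time measured, and say nothing of protein or channel activity.

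Among the PIP1 genes, PIP1A read 9.43, 8.62 and 8.92 in controls and 8.37, 8.82 and 8.89 after heat. Its highest and lowest arrays were control replicate 1 and heat replicate 1, and the groups overlapped. The difference was -0.30 (SE 0.23, 95% interval -0.83 to 0.24, limma adjusted p = 0.504), a ratio of 0.81 with bounds of 0.56 and 1.18. It was -0.077 without control replicate 1, -0.14 without heat replicate 1 and -0.48 without control replicate 2, with limma adjusted p-values of 0.889, 0.806 and 0.164.

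PIP1B, one of the main PIP1 isoforms of Arabidopsis leaves and roots, read 9.5, 9.09 and 9.57 in controls and 9.11, 9.19 and 9.15 after heat. All 3 heat arrays sat below control replicates 1 and 3 and above control replicate 2. The difference was -0.24 (SE 0.15, 95% interval -0.58 to 0.10, limma adjusted p = 0.392). Without control replicate 2 it was -0.39, with an interval of -0.65 to -0.13 and an adjusted p of 0.0546 in the same limma fit, the lowest adjusted p of these 9 probe sets among the alternatives tried.

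PIP1C read 8.33, 8.54 and 8.69 in controls and 8.43, 8.25 and 8.55 after heat. The groups overlapped, and the difference was -0.11 (SE 0.14, 95% interval -0.43 to 0.21, limma adjusted p = 0.68).

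PIP1;4 was the probe set whose groups did not overlap. It read 7.91, 8.05 and 8.07 in controls and 8.34, 8.22 and 8.19 after heat, so every heat array stood above every control. The shift was small, 0.24 (SE 0.11, 95% interval -0.01 to 0.49, limma adjusted p = 0.255), a ratio of 1.18, and no alternative brought it past the threshold, the lowest adjusted p being 0.077 after cyclic loess.

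PIP1;5 read 7.71, 7.16 and 7.35 in controls and 7.47, 7.44 and 7.36 after heat. The heat arrays all lay inside the range of the controls. The difference was 0.01 (SE 0.15, 95% interval -0.34 to 0.37, limma adjusted p = 0.967), and its sign was not stable.

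PIP1 genes that are close in sequence were also set against each other within each array. The gap PIP1A minus PIP1B was -0.40 ± 0.30 in controls and -0.45 ± 0.25 after heat (SD, n = 3 arrays each), a change of -0.06 with an exact two-sided permutation p of 0.9. The gap PIP1C minus PIP1;4 was 0.51 ± 0.10 in controls and 0.16 ± 0.17 after heat, a change of -0.35 with an exact permutation p of 0.1, which is the smallest that 3 against 3 arrays can give. Adjusted over the 2 pairs, these p-values were 0.9 and 0.2. Each gap compares the responses of 2 probe sets and not their levels, since probe sets differ in brightness for the same amount of RNA.

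**Figure D2:**
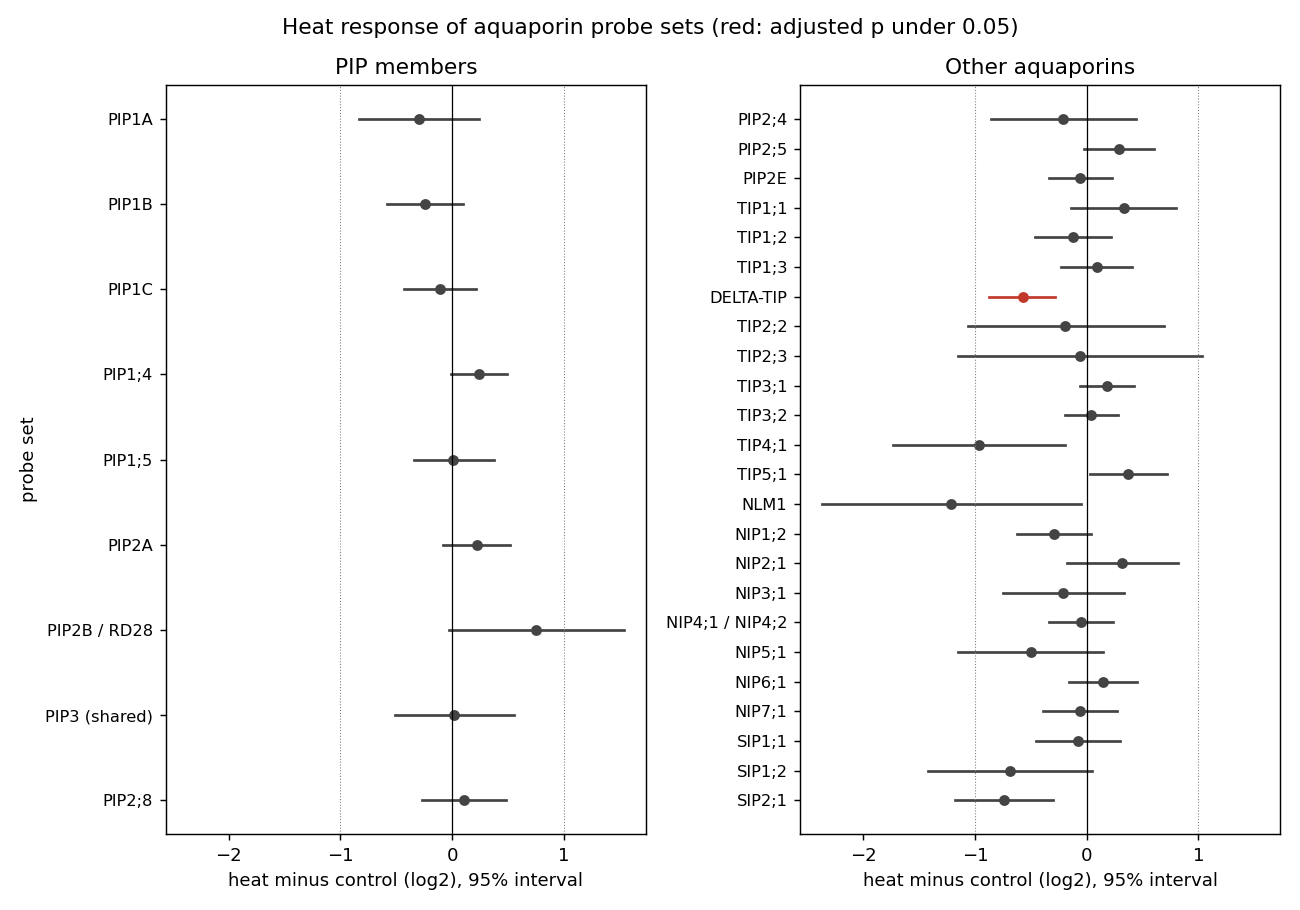
Heat minus control difference on the log2 scale (x axis, point) with its 95% interval from limma (line) for each PIP probe set (left) and for the other aquaporins (right). Dotted lines mark 1 log2 unit in each direction and red marks an adjusted p under 0.05. All 9 intervals on the left include 0, and on the right DELTA-TIP is the one in red.

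Among the PIP2 genes, PIP2A, a major water channel of roots and guard cells, read 9.68, 9.43 and 9.36 in controls and 9.60, 9.70 and 9.83 after heat. Heat replicate 1 fell within the control range and the other heat arrays just above it. The difference was 0.22 (SE 0.13, 95% interval -0.08 to 0.52, limma adjusted p = 0.369).

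The probe set of PIP2B and RD28 gave the largest difference and the widest interval of the 9. PIP2B contributes to root water transport, and RD28 was first described as a gene responsive to desiccation. It read 8.81, 7.32 and 8.24 in controls and 8.69, 8.97 and 8.98 after heat. The controls spanned 1.48 log2 units and the heat arrays 0.29, and heat replicate 1 lay below control replicate 1. The difference was 0.75 (SE 0.34, 95% interval -0.03 to 1.54, limma adjusted p = 0.25), a ratio of 1.69 with bounds of 0.98 and 2.90. The size rested on single controls: without control replicate 2 the difference was 0.35 (95% interval -0.09 to 0.80, adjusted p = 0.242), and without control replicate 1 it was 1.1 (adjusted p = 0.0857).

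PIP3, whose protein is abundant in the plasma membrane, read 9.62, 8.72 and 9.51 in controls and 9.37, 9.32 and 9.22 after heat on the probe set it shares with PIP2;8. The heat arrays lay between control replicate 2 and the other controls. The difference was 0.02 (SE 0.23, 95% interval -0.51 to 0.55, limma adjusted p = 0.968) and turned to -0.26 without control replicate 2 (95% interval -0.53 to 0.01, adjusted p = 0.173).

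PIP2;8 read 1.66, 1.49 and 1.54 in controls and 1.56, 1.45 and 2.0 after heat on its own probe set. Its mean level was at the 12.4th percentile of all probe sets, so these values cannot be told from background and the difference of 0.11 (SE 0.16, 95% interval -0.27 to 0.48, limma adjusted p = 0.742) carries little on the gene itself. The other 8 PIP probe sets stood between the 95.5th and the 99.4th percentile.

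The PIP probe sets varied more among the controls than after heat. The control SD was above the heat SD for 8 of 9, as it was for 62.1% of all probe sets, and the median SD was 0.26 in controls and 0.11 after heat, beside 0.18 and 0.14 over all probe sets. Control replicate 2 was the lowest of the 3 controls for 6 of 9 (41.3% of all probe sets) and the lowest of the 6 arrays for 4 of 9 (16.5% of all probe sets). Its gap to the mean of the other controls was -1.20 for PIP2B and RD28, -0.84 for PIP3, -0.55 for PIP1A, -0.44 for PIP1B and -0.37 for PIP1;5, against 0.06 for PIP1;4 and 0.03 for PIP1C. No difference between arrays of one group was tested.

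Several other root-expressed genes, though not all root markers, were low on the same array, and so were genes not chosen for root expression. Control replicate 2 stood below the mean of the other controls by -0.96 for PIP2;4, a PIP expressed mainly in roots, by -1.26 for TIP2;2 and -1.56 for TIP2;3, tonoplast aquaporins of root cells, and by -1.77 for NLM1 (NIP1;1), a root aquaporin that also passes arsenite. These 4 were picked out after their values were seen. Over all 24 probe sets of the other aquaporins the gaps ran from -1.77 to 0.75, and control replicate 2 was the lowest control for 17. The highest gap was that of NIP2;1, on a shared probe set at the 32.7th percentile. The root marker PYK10, a beta-glucosidase of root endoplasmic reticulum bodies, was at -0.69 and PHT1;1, a phosphate transporter read by a shared probe set, at -0.89. Of the 9 root markers, 5 were lowest among the controls there, against 41.3% of all probe sets. LRX1, COBL9 and NRT2.1 were above the mean of the other controls by 0.43, 0.19 and 0.16. Their levels stood at the 16.0th, 45.7th and 45.4th percentile of all probe sets, so their gaps may be mostly background. PYK10 stood at the 99.5th percentile and PHT1;1 at the 86.5th. The root marker gaps ran from -0.89 to 0.43, and the gaps of the 6 shoot markers ran from -0.21 to 0.39. The gaps of 2 further lists, not chosen for root expression and described below, are given beside these. They ran from -0.87 to 0.25 for 9 genes acting on PIP proteins and from -0.90 to 0.24 for 11 plasma membrane proton pumps. The pumps include AHA2, a major root proton pump, at -0.67. Control replicate 2 was the lowest control for 6 of those 9 and 7 of those 11. What root RNA adds to the spread of the PIP values was not tested.

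**Figure D3:**
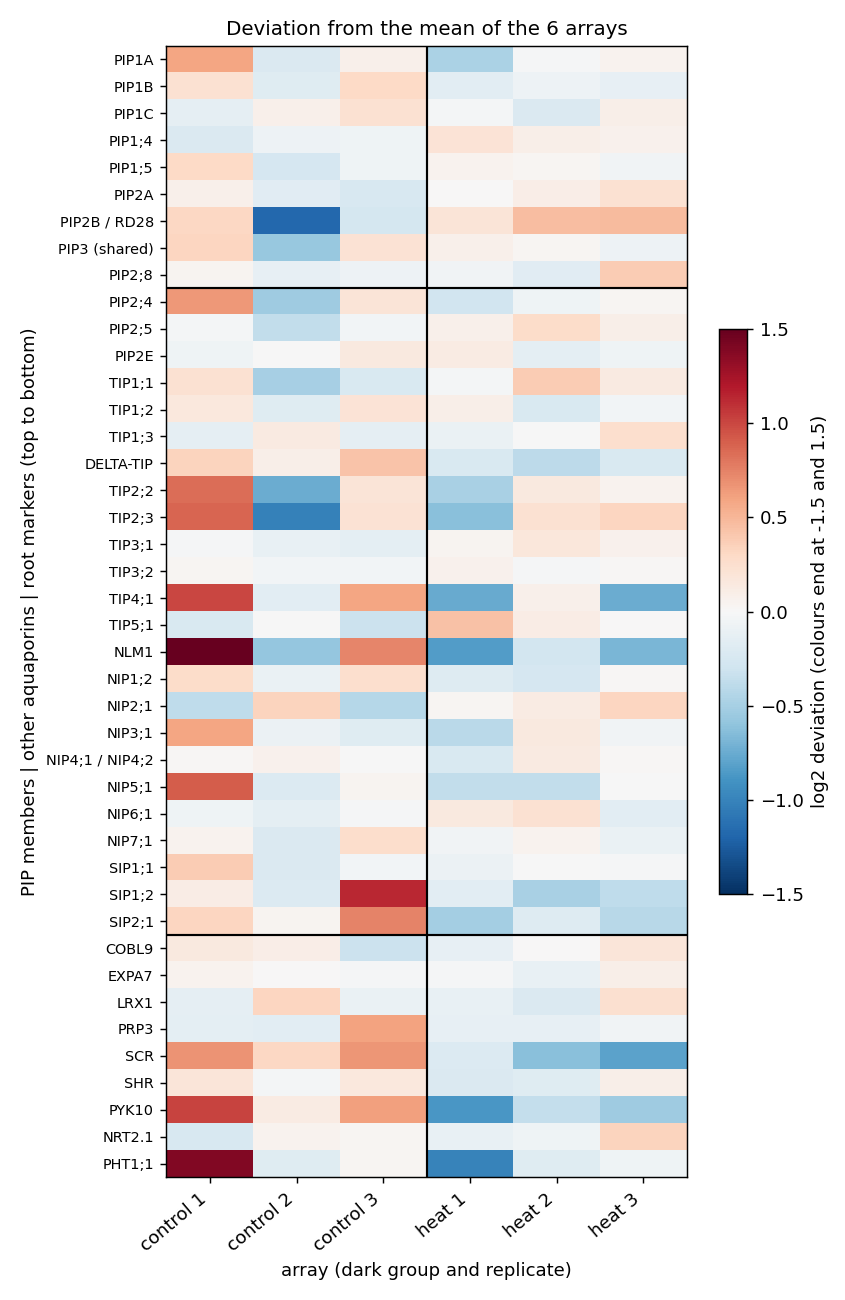
Deviation of each array (columns) from the mean of the 6 arrays on the log2 scale, for PIP probe sets (top block), other aquaporins (middle) and root markers (bottom), red for above and blue for below. Control 2 is the bluest column for the probe set of PIP2B and RD28 and for TIP2;3, and heat columns of PYK10 and SCR are blue throughout.

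Of the 9 root markers, 0 rose and 2 fell after heat, against 2.34% and 4.00% of all probe sets. SCR, a GRAS factor of the root endodermis that is also expressed in leaves, fell by 1.09 (SE 0.18, limma adjusted p = 0.013) and PYK10 fell by 1.17 (SE 0.24, limma adjusted p = 0.0287). The call of PYK10 ended without any single array other than control replicate 2 (adjusted p up to 0.111), and that of SCR with control replicate 3, heat replicate 2 or heat replicate 3 left out (up to 0.0672). The sum of log2 values over the 9 ran from 34.47 to 36.85 in controls and from 31.15 to 33.43 after heat, without overlap, whereas the sum over the shoot markers overlapped. SCR, PYK10 and PHT1;1 (-0.83, limma adjusted p = 0.316) made up most of that gap. The other 6 root markers differed by -0.20 to 0.11, with COBL9 and NRT2.1 above 0. These 6 include the 5 root markers below the median level of all probe sets, where background can hide a fall. Over the same arrays the median PIP difference was 0.02. The part of root RNA in these differences was not tested.

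The remaining aquaporins were read by 24 probe sets for 25 loci. Of these, 0 rose and 1 fell, against 2.34% and 4.00% of all probe sets, with a median difference of -0.07. A level below the median of all probe sets was found for 10 of the 24. All heat arrays lay above all controls for 3 of the 24 and below them for 2, against 10.4% and 15.8% of all probe sets. Of the 3 other PIP genes, 0 passed the test as higher and 0 as lower. PIP2;4 differed by -0.21 (95% interval -0.86 to 0.44), PIP2;5 by 0.29 (-0.02 to 0.60) and PIP2E (PIP2;6) by -0.06 (-0.34 to 0.23), with limma adjusted p-values of 0.703, 0.262 and 0.827. PIP2;5, like PIP1;4, had every heat array above every control, at 3.87, 4.06 and 3.88 against 3.76, 3.42 and 3.75. Its difference was 0.46 after quantile normalization and after cyclic loess, with limma adjusted p-values of 0.0519 and 0.056, and 0.18 without control replicate 2.

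Among 10 tonoplast aquaporins (TIPs), which carry water across the vacuolar membrane, DELTA-TIP (TIP2;1) was the one that fell. It read 9.96, 9.72 and 10.06 in controls and 9.40, 9.23 and 9.40 after heat, a difference of -0.57 (SE 0.13, limma adjusted p = 0.0402). Its call ended when any single array other than control replicate 2 was left out (adjusted p up to 0.141), and also with the arrays centred on their medians (0.0692) or after cyclic loess (0.111). Of the 8 probe sets of NOD26-like aquaporins (NIPs), which include boron and metalloid channels, 0 passed. NLM1 read 5.08, 2.84 and 4.15 in controls and 2.58, 3.14 and 2.73 after heat (difference -1.21, adjusted p = 0.216), and the boron channel NIP5;1 differed by -0.50 (adjusted p = 0.358), or by -0.17 without control replicate 1. The 3 small basic aquaporins (SIPs) of the endoplasmic reticulum gave 0 calls. SIP2;1 differed by -0.74 (adjusted p = 0.0639) with all heat arrays below all controls, and SIP1;2 by -0.69 (adjusted p = 0.262), or by -0.30 without control replicate 3.

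More probe sets passed without control replicate 2, among the other aquaporins as over all probe sets. Without it, 4 of the 24 were lower and 1 higher, against 12.0% and 4.43% of all probe sets. They were DELTA-TIP, which also passed with that array, TIP4;1, NLM1, SIP2;1 and, on a probe set shared with another locus, NIP2;1. These were named after their values were seen. The PIP count stayed at 0 higher and 0 lower of 9. All 9 PIP intervals then lay within 1 log2 unit of 0, as did those of 19216 of all 22746 probe sets. Over all probe sets the calls went to 1008 higher and 2719 lower, 4.43% and 12.0% of those tested. Whether PIPs respond differently from other aquaporins was not tested.

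Of 9 genes whose proteins act on PIP proteins, 0 rose and 1 fell, against 2.34% and 4.00% of all probe sets, with a median difference of -0.09. All heat arrays lay above all controls for 1 of the 9 and below them for 2, against 10.4% and 15.8% of all probe sets. RMA1, a membrane-anchored ubiquitin ligase whose pepper homologue reduces the level of PIP2A at the plasma membrane in Arabidopsis cells, read 4.28, 3.93 and 4.75 in controls and 3.41, 2.88 and 3.18 after heat. It fell by 1.16 (SE 0.23, limma adjusted p = 0.0247), a ratio of 0.45, with every heat array below every control. The call ended when any single array other than control replicate 2 was left out (adjusted p up to 0.103) and was kept without that array (-1.36, adjusted p = 0.00499). The list also held the SNARE proteins SYP121 and SYP61, which traffic PIP2 proteins, and the kinase OST1, which phosphorylates PIP2A in guard cells, and none of these passed. SYP121 read 5.17, 5.32 and 5.12 in controls and 5.58, 5.65 and 5.49 after heat, with every heat array above every control. Its difference was 0.37 (SE 0.11, limma adjusted p = 0.103). Without control replicate 2 it passed as higher (0.43, limma adjusted p = 0.0453), as did 4.43% of all probe sets. Of the 11 plasma membrane proton pumps (AHA genes), which energise the membrane the PIPs sit in, 0 passed and the median difference was -0.04. An unadjusted limma p under 0.05 was reached by 4 of the 11, against 21.4% of all probe sets. AHA2, a major root proton pump, read 9.27, 8.26 and 8.58 in controls and 7.40, 7.98 and 7.76 after heat, with every heat array below every control (difference -0.99, SE 0.27, limma adjusted p = 0.0784). AHA1 (-0.30) and AHA3 (-0.39) also had all heat arrays below all controls, and AHA4 (0.34) had all above. That is 3 of 11 below and 1 above, against 15.8% and 10.4% of all probe sets. AHA4 stood at the 35.0th percentile, and 6 of the 11 pumps lay below the median level of all probe sets. Without control replicate 2, AHA2 (-1.21, limma adjusted p = 0.0155) and AHA3 (-0.46, adjusted p = 0.0477) passed as lower, as did 12.0% of all probe sets. SYP121 and these pumps were named after their values were seen.

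The PIP probe sets followed different profiles over the 6 arrays. Of 36 pairs of PIP probe sets, 24 had a Pearson r above 0, with a median of 0.22 and a range from -0.80 (PIP1A with PIP1;4) to 0.83 (PIP1;5 with PIP3). PIP2A and the probe set of PIP2B and RD28 gave 0.79, and PIP1A with PIP1B gave 0.72. These describe 6 arrays that share their hybridizations and scaling. The mean PIP profile was lowest on control replicate 2, at -0.30 from its own mean, and between -0.02 and 0.17 elsewhere. Of 10745 brighter single-locus probe sets outside the aquaporins, the 5 most like that profile were AT4G10050, the dehydrin ERD14, ATXRCC1, AT3G01810 and La2, with r from 0.979 to 0.986 over the 6 arrays. They are the top of a ranking of 10745 on only 6 arrays, where values this high can arise by chance. Whether these genes are expressed together with the PIPs was not tested.

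**Figure D4:**
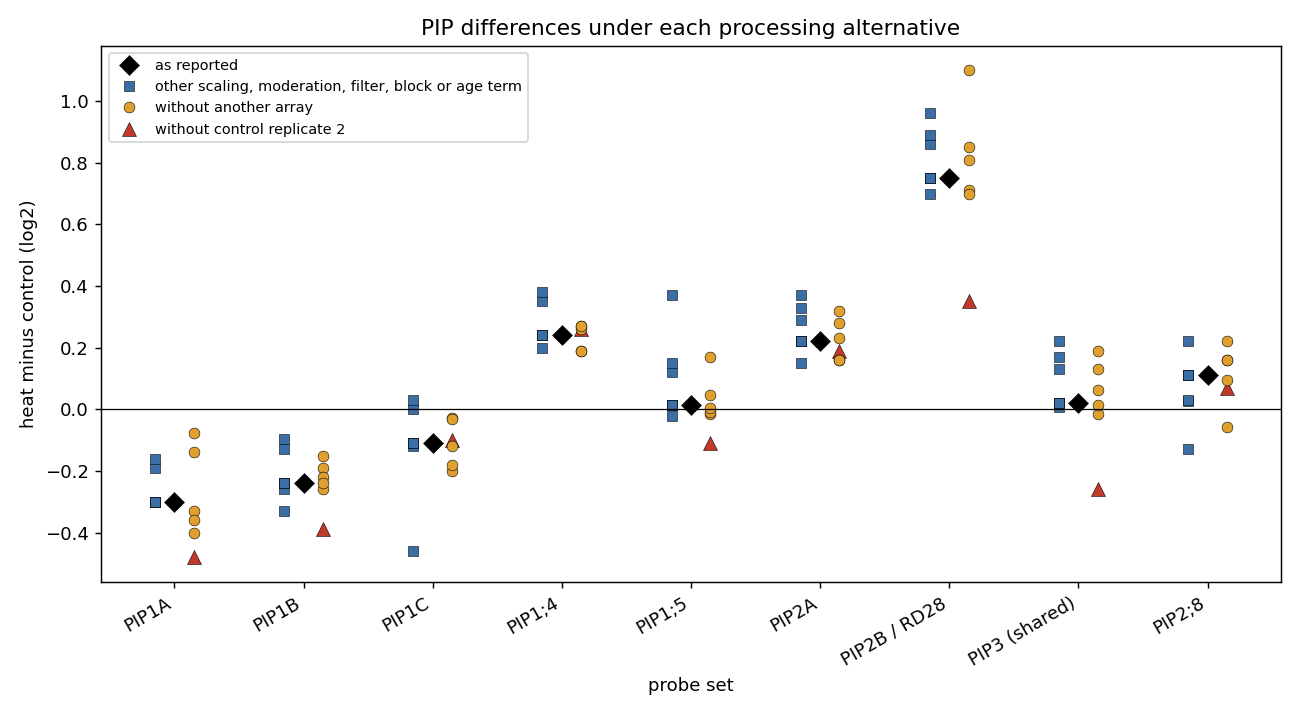
Heat minus control difference on the log2 scale (y axis) of each PIP probe set (x axis) as reported (black diamond), without control replicate 2 (red triangle), without another single array (orange circles) and under the other processing alternatives (blue squares). The probe set of PIP2B and RD28 ran from 0.35 to 1.1, while PIP1C, PIP1;5, PIP3 and PIP2;8 had values on both sides of 0.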

How the data were processed

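The authors deposited log2 values per array, made with RMA per the submitters' processing notes. Its software, version and background step are not stated there. A second deposited table held the authors' linear ratios, each of 1 heat array over the control array of the same replicate number, with empty p-value columns. They matched the log2 values to a relative gap of 6.3e-05 and were used only for that check. Its Entrez Gene identifiers named the probe sets through RefSeq's gene table of assembly TAIR10.1 (20482 of 20653 single-gene probe sets matched). No source names the build behind the array's annotation, and coordinates are left out.

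After 64 control probe sets were left out, the other 22746 went into a two-sided limma fit (limma 3.58.1, R 4.3.3, functions lmFit and eBayes) with group as its one term, adjusted over all by Benjamini-Hochberg with a threshold of 0.05. The fit was run on simulated data with independent noise. These lack the deviations that probe sets of a real array share, so the check cannot support the calls given here. A locus was read by its brightest single-locus probe set, or by a shared one where it had no other. SE and 95% intervals are limma's. The arrays carry no read depth, and their number limits the precision. No label says that replicates were grown separately, and p-values rest on the spread between arrays, possibly only technical.

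Genes and lists were chosen with earlier results of these data known. Named are the PIP loci, other aquaporins that passed and some that did not, check genes, up to 2 rises and 2 falls per further list, and the 5 probe sets most like the PIP mean. Alternatives were 3 scalings, 2 moderations, 2 filters, a replicate block, labelled age as a covariate and leaving out each array. Planned comparisons of PIP2B with RD28 and PIP3 with PIP2;8 were not possible on shared probe sets, and promoter and protein sequences were not used here.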

Additional observations from a re-analysis of the deposited data

How the results depend on the processing

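The count of PIP probe sets called stayed at 0 higher and 0 lower under all 15 alternatives, including each array left out; PIP2;8 was removed by both filters on dim probe sets. Unadjusted p fell under 0.05 for at most 3 of the 9, after centring on array medians or cyclic loess. The share of all probe sets was 21.4% in the fit as reported. It was not computed under those settings, so nothing is read from the count. Centring moved the median of all probe sets from -0.01 to 0.10 and that of the PIPs from 0.02 to 0.13. The 2 medians did not always move together. They were 0.0 and 0.15 after cyclic loess, -0.04 and 0.22 with labelled age as a covariate, and -0.01 and -0.1 without control replicate 2. Differences near 0 changed sign. PIP1C was 0.029 after cyclic loess. PIP1;5 was -0.023 after quantile normalization and ran from -0.11 (without control replicate 2) to 0.17 with single arrays left out, below 0 also without control replicate 3 and without heat replicate 1. With single arrays left out PIP3 ran from -0.26 (control replicate 2) to 0.19, below 0 also without heat replicate 1. PIP2;8 was -0.13 with labelled age as a covariate, and with single arrays left out from -0.058 (heat replicate 3) to 0.22. Outside these, PIP2E was 0.055 when centred and 0.085 after cyclic loess, and TIP2;3 was 0.054 when centred, 0.13 after quantile normalization and 0.12 after cyclic loess. Over the single arrays left out, PIP2;4 ran from -0.53 to 0.063, PIP2E from -0.14 to 0.0088, TIP2;2 from -0.61 to 0.18, TIP2;3 from -0.58 to 0.37 and the reference gene PP2AA3 from -0.076 to 0.18. The cause of these changes was not tested.

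Counts over all probe sets depended more on the setting. Without a single array, the lower calls ran from 275 to 2719 and the higher calls from 371 to 1008, the upper ends both without control replicate 2. With labelled age as a covariate 129 were higher and 10 lower, on one residual degree of freedom less and with group and age nearly collinear. The authors' ratios set heat over control arrays of the same replicate number. Deviations from the group means correlated at -0.26, -0.24 and -0.24 for numbers 1, 2 and 3. With 3 arrays a group, these values cannot show whether the arrays were paired in the experiment. With the replicate number as a block, 396 were higher and 410 lower, the PIP counts stayed at 0 and 0, and DELTA-TIP (-0.57, adjusted p = 0.0871) and PYK10 (-1.17, adjusted p = 0.103) did not pass. The falls of DELTA-TIP, RMA1, SCR and PYK10 did not pass with labelled age as a covariate (adjusted p from 0.786 to 1.0), and that of PYK10 not after cyclic loess (0.0579). SIP2;1 passed after quantile normalization (0.0468), with the strict filter (0.0447) and without control replicate 2 (0.0115). With 3 arrays a group and no detection call, the 95% intervals of the PIP differences reached from -0.83 to 1.54 over the 9 probe sets.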
